A study of Chlamydomonas reinhardtii with 12 samples.

Results

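Light is sensed in the green alga Chlamydomonas reinhardtii by opsins, which carry retinal made from carotenoids, and by blue-light receptors, which carry flavins. The channelrhodopsins COP3 and COP4 are light-gated ion channels of the eyespot region that start phototaxis and the photophobic response. Phototropin (PHOT1) and plant-type cryptochrome (CPH1) take part in the control of eyespot size, sexual development and light-dependent gene expression. The transcripts of 5 such genes, of 17744 identifiers in the count table, are described here in cells that had grown without light. The 5 were chosen by name and by no cut-off on measured values, though earlier results of these data were known. They are the eyespot opsin gene COP1/2 (Cre01.g002500), COP3 (Cre14.g611300), COP4 (Cre02.g085257), PHOT1 (Cre03.g199000) and CPH1 (Cre06.g295200). The symbols rest on general knowledge of these identifiers, since neither the count table nor the RefSeq gene table gives symbols. COP1 and COP2 are splice forms of a single gene and were counted together.

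The 12 libraries came from liquid cultures of vegetative cells kept in the dark at 25 °C for 4 weeks. The 6 PDSKO libraries were made from transformants of line CC-3403 in which phytoene desaturase (PDS), an early enzyme of carotenoid synthesis, was knocked out with Cas9 ribonucleoprotein. PDSKO 1 to 4 were titled as line E10, and PDSKO 5 and 6, titled 2A and 2D, were taken as lines A2 and D2. The 6 WT libraries were made from the parental line CC-3403. PDSKO cells were grown without arginine, had received a plasmid and were sorted by flow cytometry, whereas WT cells received 10 µg/mL arginine and no sort is given for them. Medium, plasmid, sort and genotype therefore cannot be told apart. Titles also split the libraries into WT 1 to 3, whose stem X3404VE carries another strain number than CC-3403, and WT 4 to 6. By the form of the titles E10 was set beside WT 1 to 3, and A2 and D2 beside WT 4 to 6, although the labels do not say what the titles stand for. Labels call the samples of the parental line independent but do not say if those of 1 knockout line were grown separately. The p-values therefore describe how far these libraries scatter, which may be technical.

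Depth set what could be seen. Total counts ran from 6279 to 475103 in PDSKO and from 1393032 to 35992976 in WT, so that a single count stood for 2.10 to 159 CPM (counts per 1000000 counts) in PDSKO and for 0.0278 to 0.718 CPM in WT. In A2 the identifier Cre07.g323800 took 43.3% of all counts, compared with 0.260 to 4.38% elsewhere in PDSKO and 0.381 to 5.33% in WT. Counts of PDS1 (Cre12.g509650), the targeted gene, were 0 in A2 and D2, where 3 counts stand for 6.31 CPM in A2 but 83.2 CPM in D2, above the 21.6 to 74.9 CPM of WT 4 to 6. E10 had 2 counts each in PDSKO 2 and PDSKO 4, together 49.3 CPM (Poisson 95% interval 13.4 to 126), against 113, 66.6 and 46.6 CPM in WT 1 to 3. At this depth PDS1 counts do not check the D2 and E10 labels, and an edited gene can still be transcribed. Marker genes of green algal cells (Rubisco, photosystem I and tubulins) were counted in 58 of 60 pairs of gene and library, with β-tubulin Cre12.g542250 (TUB1) at 0 in PDSKO 2 and D2. Their summed level was 2536 CPM in A2, 12645 CPM in D2, 9237 to 26046 CPM in E10 and 20303 to 43485 CPM in WT. Fewer cells of a kind and less RNA per cell cannot be told apart in such bulk samples. Intervals given below cover counting error only.

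All 5 photoreceptor genes were counted in every WT library after 4 weeks of darkness, COP4 in WT 5 with 2 counts only, under the level of 3 counts taken here as the floor of detection. Reads come from transcript 3' ends, so the CPM of a gene is not divided by its length. COP1/2 was the most abundant, with 373 ± 89.9 CPM (SD, n = 6). Its WT libraries stood at 229, 452, 438, 296, 399 and 425 CPM for WT 1 to 6, less than a 2-fold range (highest over lowest 1.97). PHOT1 followed with 120 ± 71.7 CPM, then CPH1 with 34.9 ± 24.8 CPM and COP3 with 33.1 ± 13.3 CPM, and COP4 was lowest with 10.5 ± 9.63 CPM (SD, n = 6 each). COP1/2 exceeded PHOT1 in 6 of 6 WT libraries, PHOT1 exceeded CPH1 in 6 of 6, and COP3 exceeded COP4 in 6 of 6. CPH1 and COP3 had no fixed order, since CPH1 was the higher in 2 of the 6, and their means differed by less than either SD. The ratio of the channelrhodopsins COP3 and COP4 ran from 1.68 in WT 2 to 30.5 in WT 5, the highest resting on those 2 counts. In WT 6, with 18 counts of COP3 and 9 of COP4, the Poisson intervals overlapped (7.66 to 20.4 and 2.95 to 12.3 CPM).

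**Figure D1:**
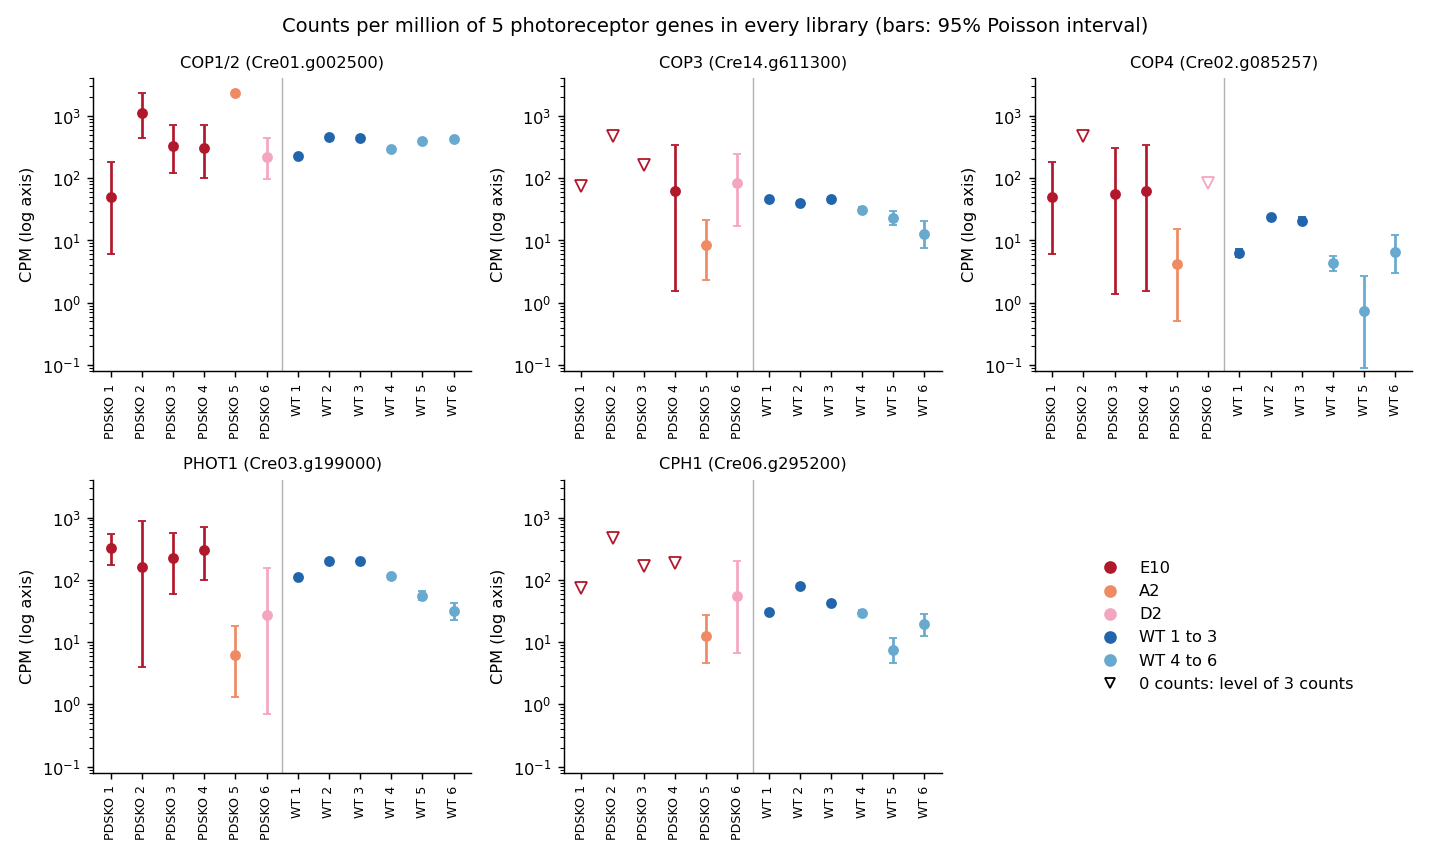
CPM of COP1/2, COP3, COP4, PHOT1 and CPH1 on a log axis in each PDSKO library (left of the grey line) and each WT library (right), with 95% Poisson intervals. Open triangles mark libraries with 0 counts, drawn at the level of 3 counts. COP1/2 in A2 (PDSKO 5) stands at 2349 CPM above all WT libraries, and PHOT1 in A2 at 6.31 CPM below them.

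In line A2, the deepest knockout library, the counts of COP1/2, PHOT1 and COP3 lay further from the WT 4 to 6 mean than counting error. How many of all identifiers did so was not counted, so this is not read as particular to these genes. COP3 was typical of the library, as its ratio to that mean was 0.380. The median ratio was 0.383 over 3818 identifiers with a WT 4 to 6 mean of at least 20 CPM. COP1/2, which encodes chlamyopsin, an abundant protein of the eyespot, had 1116 counts in A2. That is 2349 CPM (Poisson 95% interval 2213 to 2491), and only 22 identifiers of that library had more counts. D2 had 8 counts of COP1/2, or 222 CPM (95.8 to 437). WT 4, 5 and 6 stood at 296, 399 and 425 CPM, so A2 lay above all of them and D2 below all of them, with the level of each within the D2 interval. A2 was 6.29 times the WT 4 to 6 mean, where 177 counts would match that mean.

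PHOT1 differed the other way in A2. It had 3 counts, or 6.31 CPM (1.30 to 18.5), where the WT 4 to 6 mean of 67.3 ± 42.8 CPM (SD, n = 3) would give 32.0. D2 had 1 count of PHOT1, or 27.7 CPM (0.702 to 155). WT 4, 5 and 6 stood at 115, 55.5 and 31.6 CPM, so both knockout lines lay below all WT libraries of the set, although the D2 interval covers each of those levels. COP3 had 4 counts in A2, or 8.42 CPM (2.29 to 21.6), and 3 in D2, or 83.2 CPM (17.2 to 243). WT 4, 5 and 6 had 30.8, 22.7 and 12.9 CPM of COP3, so A2 lay below and D2 above every WT library. The A2 interval holds the WT 6 level, and the D2 interval those of WT 4 and WT 5. CPH1 had 6 counts in A2 (12.6 CPM) and 2 in D2 (55.5 CPM), against 29.2, 7.45 and 19.4 CPM in WT 4 to 6. COP4 had 2 counts in A2 (4.21 CPM) and 0 in D2, where 3 counts stand for 83.2 CPM, against 4.33, 0.745 and 6.46 CPM in WT 4 to 6.

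With A2 and D2 as a pair of replicates, no photoreceptor gene passed the edgeR test against WT 4 to 6, where 10.9% of 8042 identifiers were called. Passing here means a Benjamini-Hochberg adjusted p under 0.05 over all identifiers tested. COP1/2 gave a log2 fold change of 1.84 with an SE of 0.93 (edgeR's adjusted p = 0.170), higher in 1 of the 2 lines. PHOT1 gave -2.93 ± 1.12 (edgeR's adjusted p = 0.0849), lower in both lines. COP3 had -0.33 ± 0.95 (adjusted p = 0.835) and CPH1 -0.10 ± 0.94 (adjusted p = 0.95), against a median of -0.92 over all identifiers, and COP4 was too low to be tested. The COP1/2 value was -1.83 without A2, so its positive sign rests on that library. COP3 turned to 0.44 without WT 4, 0.33 without WT 5 and 0.89 without A2. For CPH1, leaving out WT 4 gave 0.80, WT 5 0.091, WT 6 0.022 and A2 0.57. Leaving out WT 4 gave 13 calls, leaving out WT 5 gave 71, leaving out WT 6 gave 127 and leaving out D2 gave 2486, against 874 with all 5 libraries.

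Since the lines pointed apart, each was also set alone against WT 4 to 6, a choice made after seeing the data. With a single knockout library such a fit assumes that the line varies as the WT libraries do. It compares that library, not the knockout. COP1/2 was higher in A2, at 2.58 ± 0.46 (log2, SE, edgeR's adjusted p = 0.00169), and PHOT1 was lower, at -3.38 ± 0.94 (edgeR's adjusted p = 0.0196). Calls were common there, as 22.6% of 10989 identifiers passed, 7.6% higher and 15% lower, and 2 of 5 genes, 1 in each direction, are too few to read as a share above it. The median over all identifiers was -1.30 in that fit. Both calls held with RLE scaling, with library totals alone, without Cre07.g323800 and without each WT library (log2 fold change 2.48 to 2.83 for COP1/2 and -3.66 to -2.79 for PHOT1). COP3 (-1.41 ± 0.90, adjusted p = 0.266), COP4 (0.12 ± 1.91, adjusted p = 0.967) and CPH1 (-0.57 ± 0.93, adjusted p = 0.660) did not pass in A2. In D2 alone, where 7.64% of 10831 identifiers were called, no photoreceptor gene passed. COP1/2 had -1.83 ± 0.70 there (edgeR's adjusted p = 0.152) and PHOT1 -2.25 ± 1.29 (adjusted p = 0.361), both above the median of -7.58 over all identifiers. With library totals alone these values were -0.73 and -1.28. The D2 level of COP1/2 was 0.594 times the WT 4 to 6 mean, where 3818 identifiers with a WT 4 to 6 mean of at least 20 CPM had a median ratio of 0.110 and 48.0% of them 0 counts. Without WT 4, COP1/2 passed as lower in D2 (-1.72, edgeR's adjusted p = 0.00631) and the number of calls was 1335, against 828.

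The A2 values can be read against the same 3818 identifiers, which have no upper limit of abundance and so are not matched to these genes. Their median ratio of A2 to the WT 4 to 6 mean was 0.383. For COP1/2 only 1.65% of them had a higher ratio. COP3, at a ratio of 0.380, sat in the middle, with 50.2% above it. PHOT1, at 0.0939, had 75.5% above it, and 12% of these identifiers had 0 counts in A2. Of the 5 algal markers 3 were called lower in A2 and D2 against WT 4 to 6, RBCS2, TUB1 and TUB2 (Cre12.g549550), where 7.49% of all identifiers tested were called lower. RBCS2 (Cre02.g120150) stood at 1162 CPM in A2 and 11563 CPM in D2, against 16007 to 21033 CPM in WT 4 to 6, and TUB1 at 8.42 CPM in A2 and 0 in D2, against 252 to 615 CPM. These markers moved in A2 with PHOT1, and their part in its level was not tested.

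**Figure D2:**
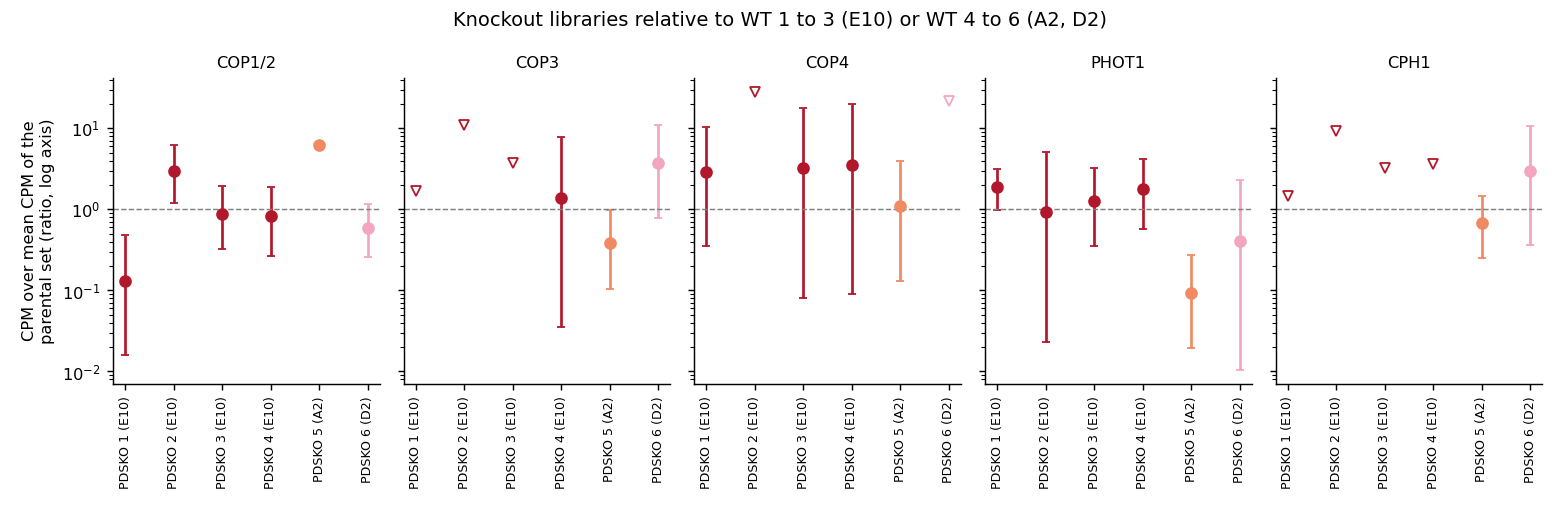
CPM of each gene in the 6 PDSKO libraries divided by the mean CPM of its parental set, on a log axis. E10 is set over WT 1 to 3, and A2 and D2 over WT 4 to 6. Bars are 95% Poisson intervals of the knockout count, the dashed line is a ratio of 1, and open triangles are libraries with 0 counts at the level of 3 counts. A2 stands at 6.29 for COP1/2 and at 0.0939 for PHOT1, while most E10 intervals cross 1.

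In line E10 PHOT1 was counted in all 4 libraries, with 13, 1, 4 and 5 counts. They stood at 322, 159, 221 and 306 CPM for PDSKO 1 to 4, against 112, 202 and 203 CPM in WT 1 to 3. The E10 libraries PDSKO 1, 3 and 4 lay above all of WT 1 to 3 and PDSKO 2 among them, with E10 at 252 ± 76.0 CPM (SD, n = 4) and WT 1 to 3 at 172 ± 52.1 CPM (SD, n = 3). Summed over E10 the 23 PHOT1 counts gave 283 CPM (180 to 425), where the WT 1 to 3 mean would give 14.0 counts. That interval lies above the mean but holds the levels of WT 2 and WT 3. Without PDSKO 1 the sum was 10 counts, or 246 CPM (118 to 452), and the interval held the mean. The 4-group fit of all 12 libraries, added after seeing the data, gave PHOT1 the other sign, -0.53 ± 0.70 (log2, edgeR's adjusted p = 0.684), against a median of -1.36 over all identifiers, so no direction is given for PHOT1 in E10. The low PHOT1 level of A2 was not seen in E10.

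COP1/2 varied among the E10 libraries by more than counting error. PDSKO 1 had 2 counts, or 49.5 CPM (5.99 to 179), where the WT 1 to 3 mean of 373 ± 125 CPM (SD, n = 3) would give 15.1. PDSKO 2 had 7 counts, or 1115 CPM (448 to 2297), where 2.34 would match. PDSKO 3 and 4 had 331 and 306 CPM, against 229, 452 and 438 CPM in WT 1 to 3. Over the 4 E10 libraries the 20 counts gave 246 CPM (151 to 381), and the mean of the libraries was 450 ± 461 CPM (SD, n = 4). The sum without PDSKO 1, which holds 40429 of the 81142 counts, was 442 CPM (262 to 699), so its side of the WT 1 to 3 mean rests on that library. COP1/2 was the only photoreceptor gene with enough counts for the fit of E10 against WT 1 to 3, at 0.15 ± 0.80 (log2, SE, edgeR's adjusted p = 0.994). That fit called 0% of 449 identifiers, 6 at an unadjusted p under 0.05, and DESeq2 called 1. Without PDSKO 1, 2, 3 and 4 the value was -0.77, -1.79, -1.52 and -1.48, but those fits tested 10459 to 10545 identifiers, whose medians were -2.53, -1.39, -1.93 and -1.89. It was -1.45 in the 4-group fit, whose median was -1.36, and -0.11 without WT 1, where the median was 0.17. The change of sign without an E10 library thus came with a shift of the median of all identifiers.

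CPH1 was at 0 in all 4 E10 libraries, 0 of 81142 counts. Of 4406 identifiers with a WT 1 to 3 mean of at least 20 CPM, 9.37% were at 0 there. WT 1, 2 and 3 stood at 31.1, 79.2 and 43.0 CPM. A floor of 3 counts over the summed libraries is 37.0 CPM. Judged by that floor, E10 was at least 1.38-fold lower than the WT 1 to 3 mean of 51.1 ± 25.1 CPM (SD, n = 3). The Poisson 95% interval of the sum reaches 45.5 CPM, nearer to that mean, and neither limit takes in the spread of WT 1 to 3. Without PDSKO 1 the floor is 73.7 CPM, above the WT 1 to 3 mean, so the bound rests on that library. WT 1 itself is below the floor of 37.0 CPM, so a level like that of WT 1 could have gone undetected. In the 4-group fit CPH1 did not pass (edgeR's adjusted p = 0.274). COP3 had 1 count in E10, in PDSKO 4, where 3.57 would match the WT 1 to 3 mean of 44.0 ± 2.91 CPM. COP4 had 4 counts, 2 in PDSKO 1 and 1 each in PDSKO 3 and 4, where 1.39 would match the mean of 17.1 ± 9.54 CPM. Neither difference was detectable at this depth, as the Poisson intervals of the sums, 0.312 to 68.7 CPM for COP3 and 13.4 to 126 CPM for COP4, hold the WT means.

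Over all 12 libraries the comparison of PDSKO with WT called 0% of 4915 identifiers and no photoreceptor gene. At an unadjusted p under 0.05 there were 1006 identifiers and none of the 4 photoreceptor genes tested, and DESeq2 called 358 identifiers but none of the 4. Leaving out PDSKO 1 gave 632 calls. COP1/2 averaged 729 ± 875 CPM in PDSKO and 373 ± 89.9 CPM in WT (SD, n = 6 each), and gave 1.32 ± 0.85 (log2, SE, edgeR's adjusted p = 0.376), which turned to -1.43 without A2. COP3 averaged 25.5 ± 37.0 CPM in PDSKO and 33.1 ± 13.3 CPM in WT, with -0.64 ± 0.75 (adjusted p = 0.646). PHOT1 averaged 174 ± 135 CPM in PDSKO and 120 ± 71.7 CPM in WT, with -0.18 ± 0.73 (adjusted p = 0.913), and its sign turned to 0.61 with RLE scaling, 0.44 with library totals alone, and 0.11, 0.26 and 0.30 without WT 1, WT 2 and WT 3. CPH1 averaged 11.3 ± 22.2 CPM in PDSKO and 34.9 ± 24.8 CPM in WT, with -0.97 ± 0.80 (adjusted p = 0.496). COP4, at 28.4 ± 29.8 CPM in PDSKO and 10.5 ± 9.63 CPM in WT, was below the filter. The median log2 fold change of all identifiers was -0.38 with TMM scaling, 0.29 with RLE scaling and -0.25 with library totals alone, so a fold change is relative to a median that moves with the scaling.

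**Figure D3:**
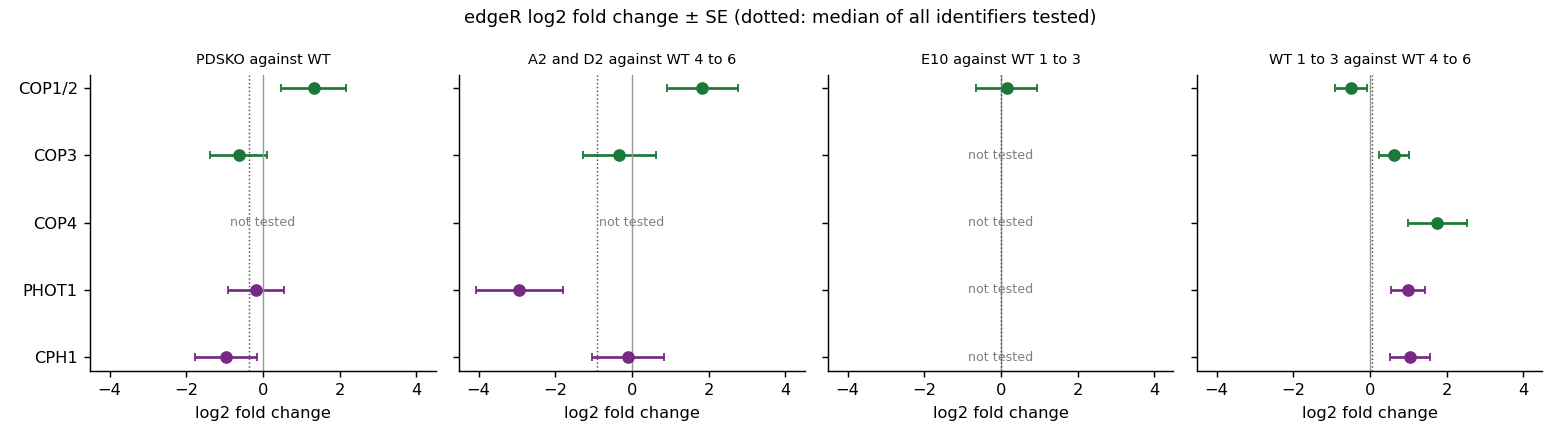
edgeR log2 fold changes with their SE for the 5 photoreceptor genes in 4 comparisons, opsins in green and blue-light receptors in purple. Dotted lines mark the median of all identifiers tested. "Not tested" marks genes below the filter on low counts. COP1/2 is at 1.84 and PHOT1 at -2.93 in A2 and D2 against WT 4 to 6.

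Whether the lines differed from each other was tested as the E10 effect minus the A2 and D2 effect, each against its own WT set. Of 9044 identifiers 0.0111% were called, and no photoreceptor gene was among them. COP1/2 had a difference of -3.27 ± 1.30 (SE, log2, edgeR's adjusted p = 0.235) and 0.33 without A2. PHOT1 had 2.30 ± 1.30 (adjusted p = 0.375), COP3 -2.83 ± 1.61 (adjusted p = 0.386) and COP4 0.37 ± 1.66 (adjusted p = 1.00). CPH1, at 0 in E10, gave an adjusted p of 0.199, and its fitted difference depends on the prior count. COP4 turned to -0.19 without WT 6. The single call of this test was unstable too, with 243 calls without WT 1, 105 without A2, 38 without D2, 10 without WT 3, 3 without WT 5, 2 without WT 2 or WT 4, and 0 without PDSKO 1 or PDSKO 2.

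The make-up of the photoreceptor counts within a library does not depend on scaling between libraries. COP1/2 took 98.7% of the 1131 counts of the 5 genes in A2 (exact Clopper-Pearson 95% interval 97.8 to 99.3%). In D2 it took 57.1% of 14 counts (28.9 to 82.3%), and in E10 summed 41.7% of 48 counts (27.6 to 56.8%). In WT it took 54.0, 56.7, 58.4, 62.3, 82.2 and 85.8% in WT 1 to 6. A2 thus lay above and summed E10 below all 6 WT libraries, although the E10 interval holds the shares of WT 1 and WT 2. PHOT1 took 47.9% (33.3 to 62.8%) in summed E10, 0.265% (0.0547 to 0.773%) in A2 and 7.14% (0.181 to 33.9%) in D2. The PHOT1 share in WT 1 to 6 was 26.4, 25.3, 27.1, 24.1, 11.4 and 6.38%. The A2 interval lies below all of the WT shares and the E10 interval above them, while PDSKO 1 alone gave 13 of the 23 E10 counts. Shares within a library depend on each other, so the high COP1/2 share of A2 lowers its other shares. The low PHOT1 share there is therefore not separate from the COP1/2 share. COP3 (0.354%) and CPH1 (0.531%) in A2 also lay below their lowest WT shares, 2.61 and 1.54%. COP4, at 0.177%, did not, with a lowest WT share of 0.154%. Without PDSKO 1 COP1/2 took 58.1% of 31 E10 counts (39.1 to 75.5%), above the shares of WT 1 and WT 2, so its place below all WT libraries rests on PDSKO 1. PHOT1 then took 32.3% (16.7 to 51.4%), still above the WT shares, but with an interval that takes in those of WT 1 to 4.

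**Figure D4:**
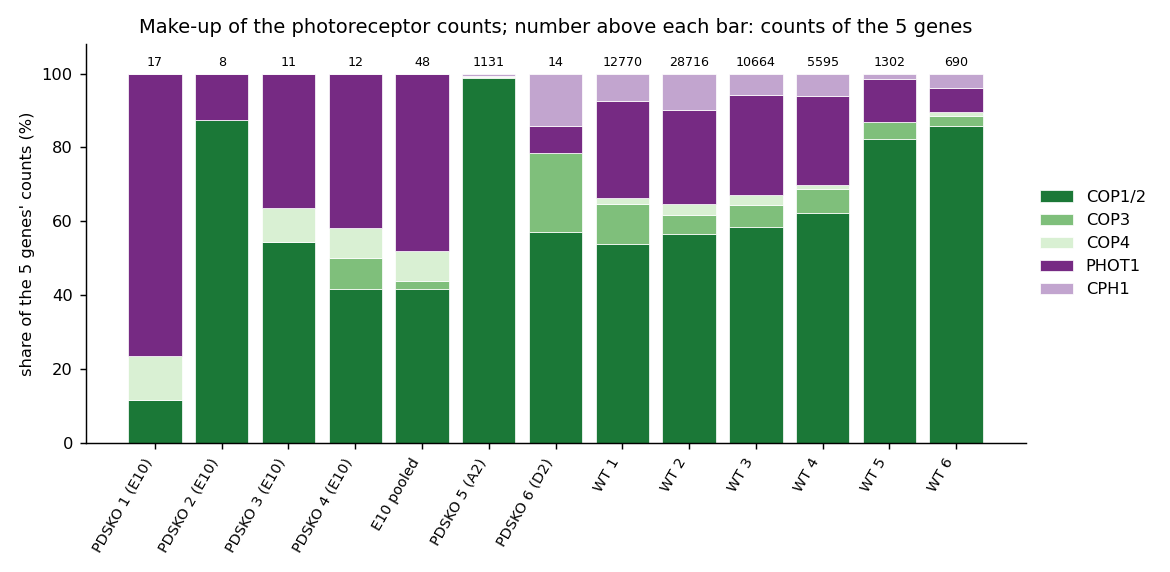
Share of the summed counts of COP1/2, COP3, COP4, PHOT1 and CPH1 taken by each gene (%) in every library and in E10 summed, PDSKO left and WT right. The number above each bar is the count the shares rest on, 8 to 17 in single E10 libraries. COP1/2 fills 98.7% of the A2 bar, and PHOT1 47.9% of the summed E10 bar.

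The deep WT libraries gave the most precise levels, and 4 of the 5 genes had a higher mean CPM in WT 1 to 3 than in WT 4 to 6. Most identifiers shared that direction, as with library totals alone the median of the 13040 identifiers tested was 0.43 on the log2 scale. COP3 stood at 45.8, 40.6 and 45.5 CPM in WT 1 to 3, against 30.8, 22.7 and 12.9 CPM in WT 4 to 6, and CPH1 at 31.1, 79.2 and 43.0 CPM, against 29.2, 7.45 and 19.4 CPM. For these 2 genes the sets did not overlap. The share of all identifiers with such a gap was not counted, so the gap is not read as particular to these genes. COP4 stood at 6.28, 24.2 and 20.9 CPM in WT 1 to 3, against 4.33, 0.745 and 6.46 CPM in WT 4 to 6. PHOT1 stood at 112, 202 and 203 CPM in WT 1 to 3, against 115, 55.5 and 31.6 CPM in WT 4 to 6. For COP4 and PHOT1 WT 1 fell within the range of WT 4 to 6. COP1/2 did not share this pattern on the CPM scale, with means of 373 ± 125 CPM in WT 1 to 3 and 373 ± 68.0 CPM in WT 4 to 6 (SD, n = 3 each).

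No photoreceptor gene passed the test of WT 1 to 3 against WT 4 to 6, which called 11.1% of 13040 identifiers. It gave 1.75 ± 0.77 for COP4 (log2, SE, edgeR's adjusted p = 0.186), 1.05 ± 0.52 for CPH1 (adjusted p = 0.239), 0.99 ± 0.43 for PHOT1 (adjusted p = 0.185) and 0.63 ± 0.39 for COP3 (adjusted p = 0.354). COP1/2 had -0.48 ± 0.42 (adjusted p = 0.515) with TMM scaling, which gives WT 5 and WT 6 factors of 0.729 and 0.627 in the 12-library fit. With library totals alone COP1/2 had a value within 0.01 of 0. COP4 passed only without WT 1 (2.13 on the log2 scale, edgeR's adjusted p = 0.0483), where the number of calls was 3288, against 1451. Depth moved with the sets, as WT 5 and WT 6, at 2683856 and 1393032 counts, were the shallowest WT libraries and had the lowest PHOT1 and COP3 levels. WT 4, at 11768160 counts, had levels of both between these and the WT 1 to 3 means. PHOT1 did not follow depth throughout, as WT 1, at 30077383 counts, had 112 CPM, below the 115 CPM of WT 4. The part of depth was not tested.

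**Figure D5:**
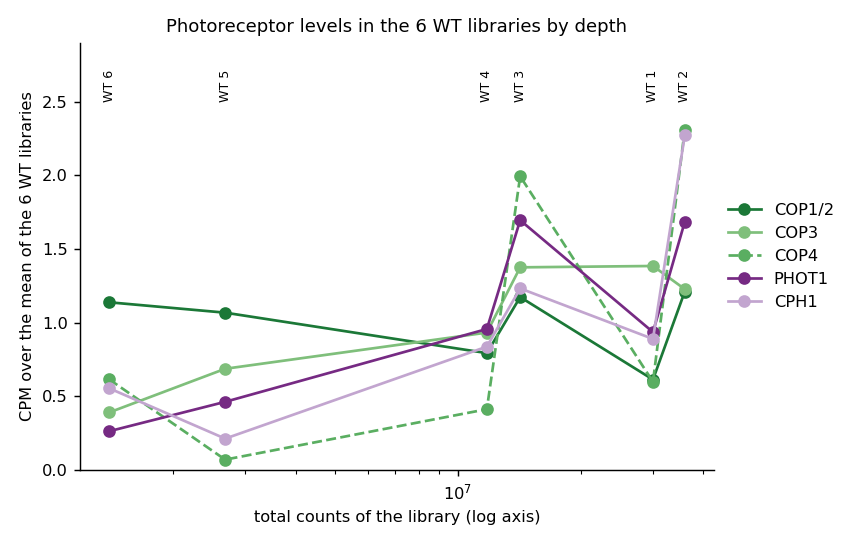
CPM of each photoreceptor gene divided by its mean over the 6 WT libraries, against the total counts of the library on a log axis. PHOT1 and COP3 are lowest in the shallowest libraries, WT 6 and WT 5, while COP1/2 is at 425 and 399 CPM there, within the range of the deeper ones.

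Over the 6 WT libraries, PHOT1 and COP3 levels ran together (Pearson r = 0.93 of log2(CPM + 1)), as did COP4 and CPH1 (r = 0.93). COP4 had only 2 counts in WT 5 and 9 in WT 6, under the 10 asked of the identifiers compared, so all its r values lean on low counts. COP1/2 had r from -0.32 to 0.31 with the other 4. These 6 points share their libraries and depths, and many identifiers reach such values, as 181 to 470 of 5547 had r above 0.9 with a given photoreceptor gene. The identifiers most like PHOT1 were Cre01.g004800 (r = 0.997) and Cre11.g467781 (r = 0.996), and those most like COP1/2 were Cre13.g568850 (r = 0.997) and Cre09.g414100 (r = 0.995). COP3 was most like Cre16.g695950 (r = 0.997) and Cre06.g278087 (r = 0.996), COP4 most like Cre12.g552900 (r = 0.999) and Cre02.g091900 (r = 0.988), and CPH1 most like Cre03.g144284 (r = 0.991) and Cre06.g280050 (r = 0.985).

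Another pair of photoreceptors was also scarce. The animal-like cryptochrome aCRY (Cre06.g278251), which also responds to red light, had 1 count over the 6 PDSKO libraries and 2.61 to 12.4 CPM in WT. The mean of the WT set would give 2.78 counts in A2, 0.211 in D2 and at most 0.306 in an E10 library. Each lies within the Poisson interval of that library, so no difference in aCRY was detectable at this depth. The ultraviolet-B receptor UVR8 (Cre05.g230600) had 4 counts in A2 (8.42 CPM) and 1 in PDSKO 4, against 6.55 to 9.33 CPM in WT, the narrowest range, highest over lowest 1.42, of the 7 photoreceptor genes. Neither was tested in PDSKO against WT, and neither was called in the comparisons that tested them. UVR8 had -0.28 ± 1.11 (log2, edgeR's adjusted p = 0.881) in A2 and D2 against WT 4 to 6.

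Of 3 light-signalling genes, of which 1 to 3 were tested in a comparison, none was called in the 5 comparisons, where 0 to 11.1% of all identifiers were. The CONSTANS-like regulator CO (Cre06.g278159) was the most abundant. It stood at 247, 478, 994 and 1286 CPM in E10, 1067 CPM in A2 and 139 CPM in D2, against 406, 1027 and 699 CPM in WT 1 to 3 and 236, 224 and 221 CPM in WT 4 to 6. A2 lay above WT 4 to 6 and D2 below them. CO had 1.48 ± 0.93 (log2, edgeR's adjusted p = 0.264) in A2 and D2 against WT 4 to 6, and 1.19 ± 0.41 (adjusted p = 0.0992) in WT 1 to 3 against WT 4 to 6. The ubiquitin ligase COP1 (Cre02.g085050), unrelated to the opsin of that name, and its partner SPA1 (Cre13.g602700) were at 0 in all PDSKO libraries, whose floor of 3 counts over all 6 is 5.06 CPM. In WT the ligase stood at 0 to 8.31 CPM and SPA1 at 2.24 to 16.3 CPM. Most of the PDSKO depth is A2, with 475103 of 592307 counts, and its set WT 4 to 6 averaged 0.702 CPM of the ligase and 7.33 CPM of SPA1. Summed E10 has a floor of 37.0 CPM, above all these WT levels. For both genes the mean of the WT set lay within the Poisson interval of each PDSKO library, so no difference was detectable at this depth.

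Photoprotection genes that phototropin and UVR8 are known to control stood at 0 to 8.03 CPM in the dark. LHCSR1 (Cre08.g365900) and PSBS2 (Cre01.g016750) were listed at 0 in all 12 libraries and are named for that, after the values were seen. LHCSR3.1 (Cre08.g367500) and LHCSR3.2 (Cre08.g367400), near-identical copies whose shared reads the authors discarded, were at 0 in PDSKO and at 0 to 3.17 and 0.798 to 8.03 CPM in WT. With shared reads left out these values can understate both copies, and whether PSBS1 and PSBS2 share reads was not checked. LHCSR3.2 had 4.97 CPM in WT 2 and 8.03 CPM in WT 3, beside 7.58 and 7.18 CPM of UVR8. PSBS1 (Cre01.g016600) was at 0 in PDSKO and had 24 counts over all WT libraries, and was likewise named after these were seen. For LHCSR3.1, LHCSR3.2 and PSBS1 the mean of the WT set would give at most 1.17 counts in any PDSKO library. Their 0 counts there thus show no difference. None of the 5 was tested in PDSKO against WT.

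Carotenoid synthesis supplies the β-carotene from which retinal is made. Of 7 genes 6 were tested in PDSKO against WT and none was called, with a median of -0.72, against -0.38 over all identifiers. In A2 and D2 against WT 4 to 6, 1 of 7 was called, PDS1 itself, beside 10.9% of all identifiers tested. PDS1 had 0 counts in both lines, against 74.9, 21.6 and 47.4 CPM in WT 4 to 6 (edgeR's adjusted p = 0.0279). β-carotene hydroxylase CHYB1 (Cre04.g215050), which draws β-carotene towards xanthophylls, had 1 count in A2 (2.10 CPM) and 2 in D2 (55.5 CPM), against 125, 101 and 90.5 CPM in WT 4 to 6, at -3.69 ± 1.26 (log2, edgeR's adjusted p = 0.0618). Phytoene synthase PSY1 (Cre02.g095092), the entry enzyme of the pathway, stood at 56.8 CPM in A2 and 166 CPM in D2, above the 36.7, 20.5 and 7.18 CPM of WT 4 to 6, at 1.71 ± 0.82 (adjusted p = 0.15). Between the WT sets 1 of 7 was called, beside 11.1% of all identifiers tested. It was lycopene ε-cyclase LCYE1 (Cre06.g267600), which leads to lutein. LCYE1 had 0, 2 and 0 counts in WT 1 to 3, against 449, 54 and 20 counts in WT 4 to 6 (edgeR's adjusted p = 4.91e-05). It had 5 counts in A2 and 0 in D2 and E10, whose summed floor of 37.0 CPM lies above the WT 4 to 6 mean of 24.2 CPM.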

How the data were processed

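Total RNA was made into CEL-Seq libraries, a method that reads the 3' end of transcripts. The authors used BWA MEM and the 281_v5.6 transcriptome for the second read, dropped reads with several places and counted with MapAndGo, per the labels' protocols; edgeR is named in the submitters' processing notes without a role. How molecular identifiers were handled was not given in the sources used here. As deposited, the table holds raw counts for 17744 identifiers, with 0 columns left unmapped, and each column was matched to its sample by title. Counts were tested with edgeR 4.0.16 (R 4.3.3): filterByExpr by group, TMM factors, glmQLFit and glmQLFTest, two-sided, Benjamini-Hochberg adjusted over all identifiers tested; the SE is the log2 fold change over the root of F. Alternatives were DESeq2 1.42.0, other scalings and filters, blocking by replicate number, the title set as covariate, summed E10 libraries and libraries left out. The test was run on simulated counts of known changes. Python 3.11.15 with scipy 1.17.1 gave CPM, Poisson and Clopper-Pearson 95% intervals, and floors of 3 counts. The genes and lists were chosen with earlier results of these data known. Beside the 5 genes, at most 3 members of a list were named for a comparison, by smallest p or because they were called, apart from genes said to be named after their values were seen. Likeness used identifiers with at least 10 counts in each WT library. RefSeq (v5.5) matched 17742 identifiers and gives 1 transcript for each of the 5 genes. Its coordinates are of another build, and no value given here rests on them. The lowest chi-square per degree of freedom between libraries of a group was 3.95 (PDSKO 3 and 4), so no library was counted as a repeat. Sequences of the genes were not used here.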

Additional observations from a re-analysis of the deposited data

Results flagged for a closer look

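In 14 groups of 4 or 6 libraries checked for a lone extreme CPM value, 2 stood out. The cut-off would mark about 1 in 20 groups of normally spread values, which such low counts are not. A group with counts in only 1 library is always marked, and the E10 groups are part of the PDSKO groups. COP3 in E10 was at 61.2 CPM in PDSKO 4 and at 0 in the other E10 libraries, a single count. CPH1 in PDSKO was at 55.5 CPM in D2, 2 counts, with A2 next at 12.6 CPM and the E10 libraries at 0. Both rest on counts at or below the floor of 3.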

How the results depend on the processing

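Of 361 log2 fold changes of the 5 genes under the alternatives run, 320 kept their sign and their side of the threshold, 37 changed sign, and 4 passed the test in place of failing it; the causes were not tested. The 4 were COP1/2 and PHOT1 with A2 as the lone knockout library (2.58 and -3.38), COP4 between the WT sets without WT 1 (2.13), and COP1/2 in D2 without WT 4 (-1.72). The median of all identifiers moved with scaling, at -0.38 (TMM), 0.29 (RLE) and -0.25 (library totals) in PDSKO against WT. Single counts in E10 limit what depth can show there.

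In PDSKO against WT the number of identifiers called, 0, became 164 with RLE scaling, 4 with library totals alone, 1257 with no filter, 679 with min.count 3, 358 with DESeq2, 11 without WT 2 and WT 3, 1 with E10 summed, and 0 to 632 with each library left out. COP3 turned to 0.0048 with RLE. PHOT1 turned to 0.61 with RLE, 0.44 with totals, 0.60 with DESeq2 and 0.56 without WT 2 and WT 3. With a library left out COP1/2 ran from -1.43 to 1.36 and PHOT1 from -1.18 to 0.30. The replicate numbers did not pair the libraries (correlation by number -0.0930 to 0.378, with libraries 1, 3 and 5 correlating best with their own number). With the replicate block 69 identifiers were called and COP1/2 was -0.54; in E10 against WT 1 to 3 the block gave -1.68 for COP1/2.

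In A2 and D2 against WT 4 to 6 the 874 calls became 512 with totals and 1470 with no filter, and ran from 13 to 2486 with a library left out. COP3 turned to 0.19 with RLE, 0.050 with totals and 0.33 with DESeq2. CPH1 turned to 0.40 with RLE, 0.16 with totals, 0.47 with DESeq2, 0.058 without Cre07.g323800 and 0.020 in the 4-group fit. With a library left out COP1/2 ran from -1.83 to 2.58, COP3 from -1.41 to 0.89, PHOT1 from -3.38 to -1.92 and CPH1 from -0.57 to 0.80. In D2 alone, 539 were called with totals and 590 to 1335 with a WT library left out, where COP1/2 ran from -1.72 to -1.61; over all alternatives COP1/2 ran from -1.83 to -0.73 and PHOT1 from -2.51 to -1.28.

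In E10 against WT 1 to 3, DESeq2 called 1 and the 4-group fit 3, and leaving out a library 0 to 1. COP1/2 turned to -1.55 with no filter, -0.14 with min.count 3 and -1.45 in the 4-group fit, and ran from -1.79 to 0.33 with a library left out. Between the WT sets DESeq2 called 2235, and leaving out a library 1119 to 3288 (COP4 1.26 to 2.33). For the E10 effect minus the A2 and D2 effect, 0 were called with RLE and with min.count 3, 42 with no filter, 665 with DESeq2 and 0 to 243 with a library left out; COP1/2 then ran from -4.08 to 0.33 and COP4 from -0.19 to 8.76.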
